A study of Mus musculus with 4 samples.

Results

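Serpins, the serine protease inhibitor family, were followed in the liver of mice with and without Fto. Members were the protein-coding rows whose symbol begins with Serpin. They were 31 of the 12883 genes in the input table and 34 of the 7569 transcripts in the immunoprecipitate table, where the 34 transcripts belonged to 25 genes. Together the tables held 35 serpin genes, of which 21 stood in both, 10 in the input alone and 4 in the immunoprecipitate alone. Clade A, the Serpina genes, supplied 18 input genes and 25 immunoprecipitate transcripts. The other clades supplied 13 genes and 9 transcripts.

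A typical serpin is cleaved by its target protease, changes shape and traps that protease in a dead complex. Hepatocytes secrete many clade A serpins into plasma, and a pair of them no longer inhibit proteases and carry hormones instead: Serpina7 encodes thyroxine-binding globulin and Serpina6 encodes corticosteroid-binding globulin. Clade B serpins stay inside cells, while the remaining clades include the plasma inhibitors of coagulation, fibrinolysis and complement.

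The mice were on a C57/Bl6 background, either wild-type or Fto knockout, and both genotypes shared the tissue (liver biopsy) and the preparation of total RNA. The enzyme that Fto encodes removes methyl groups from adenosines of RNA. RNA was measured as an input and, by miCLIP, after immunoprecipitation with an antibody against methylated adenosine, which gave 4 groups with 3 replicates stated for each. Whether each replicate came from its own animal is not stated in the sources used here, so the spread behind the p-values may be technical, and age, sex and the way in which the knockout was made are not stated either. The deposited tables give 1 fold change per feature with its standard error (SE), and no value of a single library was analysed here. Fto was lower in the knockout in the authors' deposited table of the input (log2 fold change −1.49, SE 0.27), and the sign of that table was read from it. The sign of the immunoprecipitate table was read the same way and rests on a weak correlation across 717 genes whose mean reached 10 in both tables (Spearman 0.17, a description of genes that share libraries). Read the other way, every immunoprecipitate sign below turns.

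Serpina7 lies at chrX:139079249-139085236 and the other 17 clade A genes of the input lie in 1 cluster on chromosome 12. Promoter sequences of 26 members were at hand from RefSeq (GRCm38.p6). They were searched on both strands for the letters GTTAAT and for TATAAA, the TATA box; these motifs do not overlap in the sequences printed. GTTAAT was found on the gene's own strand within 100 bases before an annotated start in 6 members, Serpina7 and the 5 Serpina1 copies, against 1.35% of all 32851 promoters of the same length. Counted anywhere on either strand it was found in 7 members, against 7.1% of all promoters. A member counts if any of its starts has the match, while the percentages count single promoters. The 5 Serpina1 copies share the letters around GTTAAT, so their matches are not independent, and enrichment was not tested. The stretches below set the called gene beside the copies that share this motif with it. All lie on the minus strand, run 5′ to 3′ and stop at or before an annotated first transcribed base, with the motifs in capitals. The Serpina7 stretch is chrX:139085236-139085313, and those of the copies are chr12:103863619-103863660 (Serpina1a), chr12:103738189-103738235 (Serpina1b), chr12:103904950-103904997 (Serpina1c), chr12:103773633-103773669 (Serpina1d) and chr12:103956916-103956995 (Serpina1e).
Serpina7: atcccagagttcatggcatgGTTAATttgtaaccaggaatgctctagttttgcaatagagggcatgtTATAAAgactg
Serpina1a: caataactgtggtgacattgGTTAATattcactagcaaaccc
Serpina1b: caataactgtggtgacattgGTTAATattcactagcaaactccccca
Serpina1c: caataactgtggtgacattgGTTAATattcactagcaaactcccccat
Serpina1d: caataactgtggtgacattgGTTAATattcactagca
Serpina1e: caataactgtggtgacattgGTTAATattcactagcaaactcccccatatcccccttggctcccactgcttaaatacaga

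Serpina7 has 2 annotated starts 17 bases apart, and GTTAAT begins 57 and 74 bases before them. Its TATAAA begins 10 bases before the upstream start and 27 bases before the downstream one. In the Serpina1 copies the letters around GTTAAT are the same, yet the annotated starts follow it at 16 (Serpina1d), 21 (Serpina1a), 26 (Serpina1b), 27 (Serpina1c) and 78 bases (Serpina1e). TATAAA was absent from the 5 Serpina1 windows and was found in 5 members on either strand, against 13.6% of all promoters. A match is a string of letters and was not tested as a binding site.

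Input RNA was compared between the genotypes to ask which serpin RNA levels differed without Fto. Serpina7 was the 1 serpin called, and it was higher in the knockout by 2.50-fold on the linear scale. Its level averaged 224.6 over the libraries, with a log2 fold change of 1.32 (SE 0.27, 95% interval 0.79 to 1.85, adjusted p = 0.00484 by DESeq2's Wald test) in the authors' deposited table. It had the 3rd lowest p and the 2nd largest rise of all genes in that table. Among serpins with a mean of at least 10 this was 1 of 26, beside 0.0323% of 9285 genes called higher at that mean. Serpina7 was named in the choice of members because this rise was already known, so the count of 1 is a description. In bulk liver, more RNA per cell and more cells of a type cannot be told apart.

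**Figure D1:**
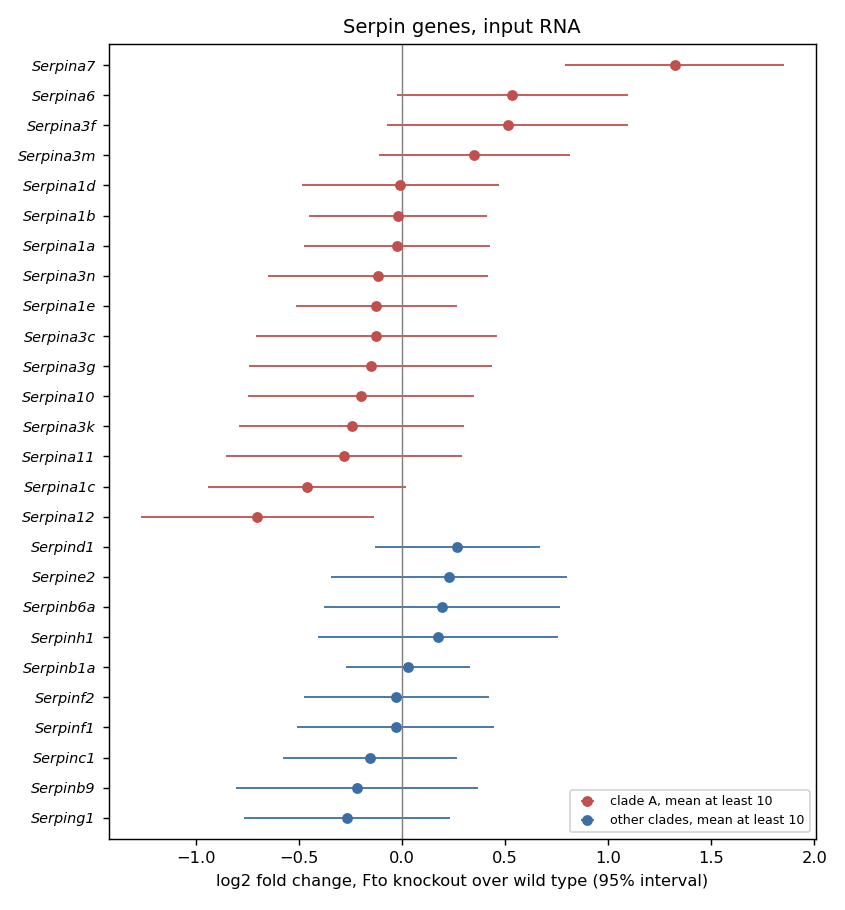
Log2 fold change of the 26 serpin genes with a mean of at least 10 in input RNA (x axis, knockout over wild type) with its 95% interval from the authors' standard error; clade A is red and other clades are blue. Serpina7 stands at 1.32 with an interval that begins at 0.79, and the other 25 genes lie between −0.70 and 0.54.

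The second hormone carrier, Serpina6, was the next highest member with a log2 fold change of 0.54 (mean 144.1, SE 0.29, interval −0.03 to 1.10, p = 0.0621) in the authors' deposited table, and it was not called. Serpina12, the adipokine vaspin, lay at the other end with −0.70 (mean 122.2, SE 0.29, interval −1.27 to −0.14, p = 0.0146, adjusted p = 0.9998) according to the authors' deposited table. Serpina7 and Serpina12 were the 2 of 26 serpins with an unadjusted p under 0.05, beside 2.53% of 9285 genes at that mean. Of the 25 members other than Serpina7, 23 had an interval that ended below a log2 fold change of 1, the exceptions being Serpina6 and Serpina3f, both with an upper limit of 1.10. The lower limit lay above −1 for 24, Serpina12 being the exception. The SE was at most 0.302 over all 9301 genes at that mean, and input folds have the small size of shrunken estimates. These limits are therefore no bound on the size of a difference, and the same share over all genes was not computed.

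The Serpina1 copies, which encode alpha-antitrypsin, the plasma inhibitor of neutrophil elastase, were not called in the input, and each interval held 0. All 5 lay below 0, at −0.02 for Serpina1a (mean 293.5), −0.02 for Serpina1b (mean 1343), −0.01 for Serpina1d (mean 803.9) and −0.13 for Serpina1e (mean 1767) in the authors' deposited table. Serpina1c had the lowest value of the group, −0.46 (mean 762.5, SE 0.24, interval −0.94 to 0.02, p = 0.0588), in the authors' deposited table. Reads of these near-identical copies can be split by the counting, so the values of single copies are uncertain.

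Serpina3 genes, relatives of antichymotrypsin that multiplied in the mouse, had values on both sides of 0 and none past the test. Of the 6 with a mean of at least 10, 2 lay above 0 and 4 below, with a median of −0.12. Serpina3k, the one with the most signal (mean 9748), stood at −0.25 (SE 0.28), and Serpina3n, a gene of the acute-phase response, stood at −0.12 (mean 519.8, SE 0.27) in the authors' deposited table. Serpina3f stood at 0.51 (mean 10.97, SE 0.30, p = 0.0863) and Serpina3m at 0.35 (mean 303.0, SE 0.24, p = 0.137) in the authors' deposited table. Reads of related Serpina3 genes could be split by the counting as well, and identity between them was not computed. Serpina3h, at −0.05 with a mean of 2.85 in the authors' deposited table, is a transcribed pseudogene in RefSeq.

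Other clade A genes were single copies. Serpina10, an inhibitor of coagulation factor X that works with protein Z, stood at −0.20 (mean 479.7, SE 0.28) in the authors' deposited table. Serpina11 stood at −0.28 (mean 81.7, SE 0.29) and Serpina9, at a mean of 5.98, at −0.01 (SE 0.18) in the authors' deposited table.

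Along the cluster, which spans chr12:103616675-104414334 in RefSeq GRCm38.p6 (798 kb), 14 of 17 genes lay below 0 and 3 above. The genes above 0, Serpina6, Serpina3f and Serpina3m, were not neighbours of each other. Among these 17 genes Serpina12 lay between Serpina9 at −0.01 and Serpina3c at −0.13 in the authors' deposited table. Serpina5, Serpina3a and Serpina3b, which lie between Serpina12 and Serpina3c, were not among the input members. Genes in the cluster share libraries and, for the copies, reads, so their signs are not independent.

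**Figure D2:**
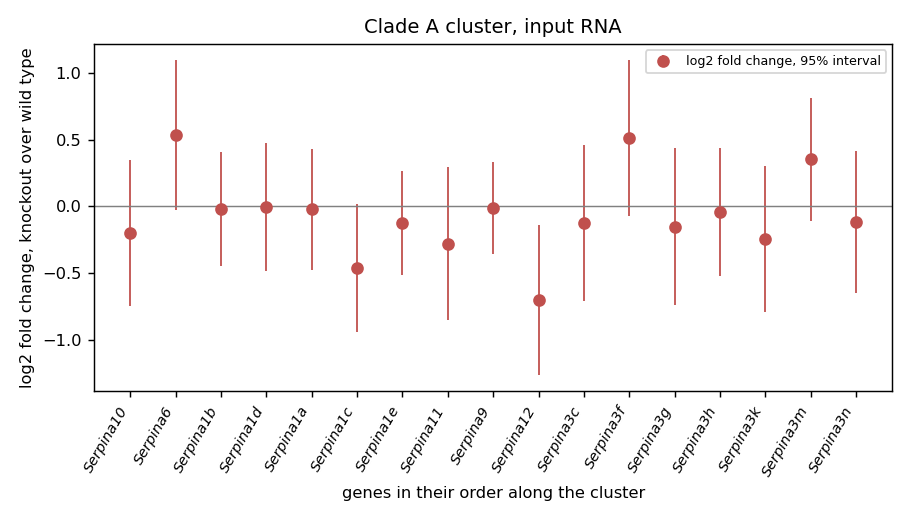
Log2 fold change in input RNA (y axis, with its 95% interval) of the 17 clade A genes of the chromosome 12 cluster in their genomic order (x axis). Serpina6 at 0.54 and Serpina12 at −0.70 mark the range, and 14 points lie below 0.

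Plasma inhibitors outside clade A did not pass the test in the input. Serpinc1, which encodes antithrombin, stood at −0.16 (mean 2312, SE 0.22), and Serpind1, heparin cofactor II, stood at 0.27 (mean 995.0, SE 0.20, p = 0.191) in the authors' deposited table. Serpinf2, the plasmin inhibitor alpha-antiplasmin, stood at −0.03 (mean 1391, SE 0.23), and Serping1, the inhibitor of the first complement proteases, at −0.27 (mean 767.9, SE 0.25, p = 0.295) in the authors' deposited table. Serpine2, protease nexin, stood at 0.23 (mean 37.6, SE 0.29) in the authors' deposited table. For each of these 5 genes the interval held 0.

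For the members below the interval also held 0. They are Serpinf1 and Serpinh1, which do not inhibit proteases, the intracellular clade B and Serpini1. Serpinf1, which encodes pigment epithelium-derived factor, stood at −0.03 (mean 260.3, SE 0.24), and Serpinh1, a collagen chaperone of the endoplasmic reticulum, at 0.17 (mean 26.6, SE 0.30) in the authors' deposited table. Of the intracellular clade B, Serpinb1a, an inhibitor of neutrophil proteases, stood at 0.03 (mean 13.4) and Serpinb6a at 0.19 (mean 24.3) in the authors' deposited table. Serpinb9, the granzyme B inhibitor, stood at −0.22 (mean 14.9) and Serpinb6b at 0.38 (mean 2.98) in the authors' deposited table. Serpini1, neuroserpin, had a mean of 2.89 and a value of 0.03 in the authors' deposited table.

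Set side by side, clade A had a median log2 fold change of −0.12 over 16 genes with a mean of at least 10, with 4 above 0. The other clades had a median of 0.00 (−0.0001) over 10 genes, with 5 above 0. The median of all 9301 genes at that mean was 0.00 (0.0038), and 50.6% lay above 0. Median sizes regardless of sign were 0.22 in clade A, 0.18 in the other clades and 0.15 over all genes. Genes are not replicates, and the clades were not tested against each other.

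Genes that act with serpins were read in the same table, and none of them besides Serpina7 was called. Of 30 listed proteases that serpins act on, 22 were measured and 9 lay above 0 (median −0.03). The complement protease gene C1s1 stood at −0.52 (SE 0.21, p = 0.0147), Casp1 at 0.70 (SE 0.30, p = 0.0184), Hgfac at −0.43 and Proc at −0.28 in the authors' deposited table. Of 27 listed genes of thyroid hormone carriage, transport and response, 24 were measured, 13 of them above 0 (median 0.00). Beside Serpina7, the aromatic amino acid and iodothyronine transporter gene Slc16a10 stood at 0.73 (SE 0.24, p = 0.00257), the organic anion transporter gene Slco1a4 at 0.39 and the hormone-responsive Klf9 at −0.33 in the authors' deposited table. The deiodinase gene Dio1 stood at 0.04 (SE 0.28, p = 0.895) in the authors' deposited table.

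All 12 listed genes of glucocorticoid carriage and response were measured, with 7 above 0 and a median of 0.07. Sgk1 stood at 0.73 (SE 0.27, p = 0.00666) and Tat, a tyrosine-degrading enzyme gene, at 0.57 (SE 0.26, p = 0.0302) beside Serpina6 in the authors' deposited table. Of 14 liver transcription factor genes 5 lay above 0 (median −0.09), with Cebpa at −0.52 (SE 0.21, p = 0.0133) in the authors' deposited table. Of 31 measured genes of the secretory path 25 lay above 0 (median 0.13), with Srp9, a subunit of the signal recognition particle, at 0.68 (SE 0.28, p = 0.0145) in the authors' deposited table.

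Markers of the cells that liver tissue can hold were read beside these values. Of 7 hepatocyte markers 4 lay above 0 (median 0.05), with Alb at a mean of 84262 in the authors' deposited table. Of 10 measured macrophage markers 4 lay above 0 (median −0.02), of 6 endothelial markers 4 (median 0.12), of 8 stellate cell markers 3 (median −0.18) and of 4 bile duct markers 2 (median −0.12). Lymphocyte markers numbered 3 measured of 8 and pancreatic acinar markers 1 of 4. The neutrophil and red cell markers, 6 measured of 9, had a joint median of −0.40 and lay on opposite sides. The neutrophil genes S100a8 at 0.14 (p = 0.313) and S100a9 at 0.52 (SE 0.26, p = 0.0499) lay above 0 at means of 4.47 and 4.68 in the authors' deposited table. The red cell genes lay below 0, Alas2 at −0.99 (SE 0.285, p = 4.92e-04, adjusted p = 0.443) and Hba-a1 at −0.48 (SE 0.30, p = 0.105) by the Wald test in the authors' deposited table. Hbb-bt at −0.52 (SE 0.27) and Hbb-bs at −0.32 (SE 0.26) have no p there, so neither has a test result. The part of any cell type in the Serpina7 rise was not tested.

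RNA bound by the antibody was compared between the genotypes to ask which serpin transcripts were recovered more or less. In the immunoprecipitate 1 serpin transcript was called, the less abundant of the 2 Serpinf2 transcripts, and it was lower. The call rests on the authors' p, which does not test the printed fold, so lower is the sign of that fold alone. Serpinf2 lies at chr11:75431736-75439501 (RefSeq GRCm38.p6). That transcript stood at −8.87 (mean 25.6, SE 1.499, 95% interval −11.81 to −5.93, adjusted p = 0.00402) according to the authors' deposited table. The other Serpinf2 transcript stood at −0.40 (mean 74.7, SE 0.81, adjusted p = 0.971) according to the authors' deposited table, 8.47 above it on the log2 scale. The difference between the transcripts was not tested. The 27 serpin transcripts with a mean of at least 10 had 1 lower call, beside 4.90% of 1571 transcripts, and 0 higher ones, beside 1.34%. Of 1183 protein-coding transcripts at that mean the authors' DESeq2 values called 0 higher, with 45 higher at an unadjusted p under 0.05. A fitted fold of this size at such a mean leaves a level near 0 in 1 genotype, and it is no bound on the size of the difference.

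In the immunoprecipitate an unadjusted p under 0.05 was reached by 4 of these 27, all lower, beside 17.0% of 1571 transcripts lower and 5.98% higher. Besides Serpinf2 they were both Serpina10 transcripts, at −10.62 (mean 12.98, SE 2.60, p = 0.00387, adjusted p = 0.0663) and −5.64 (mean 24.7, SE 1.87, p = 0.0435) in the authors' deposited table, and Serpina3c. Serpina3c, a kallikrein-binding relative of antichymotrypsin, stood at −4.95 (mean 10.5, SE 1.44, p = 0.00871, adjusted p = 0.102) according to the authors' deposited table. Serpind1, at a mean of 6.16, stood at −6.83 (SE 2.62, p = 0.0317) and has no adjusted p, according to the authors' deposited table. Serpina3g lay on the opposite side at 5.80 (mean 25.8, SE 1.99, p = 0.0560, adjusted p = 0.238) according to the authors' deposited table.

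The authors' p in this table is not the test of the printed fold change, and calls made from fold over SE were 5 in place of 1: Serpinf2, both Serpina10 transcripts and Serpina3c lower, and Serpina3g higher. The sources used here do not say which term the authors' p tests. Both transcripts of a gene share exons and are not independent.

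**Figure D3:**
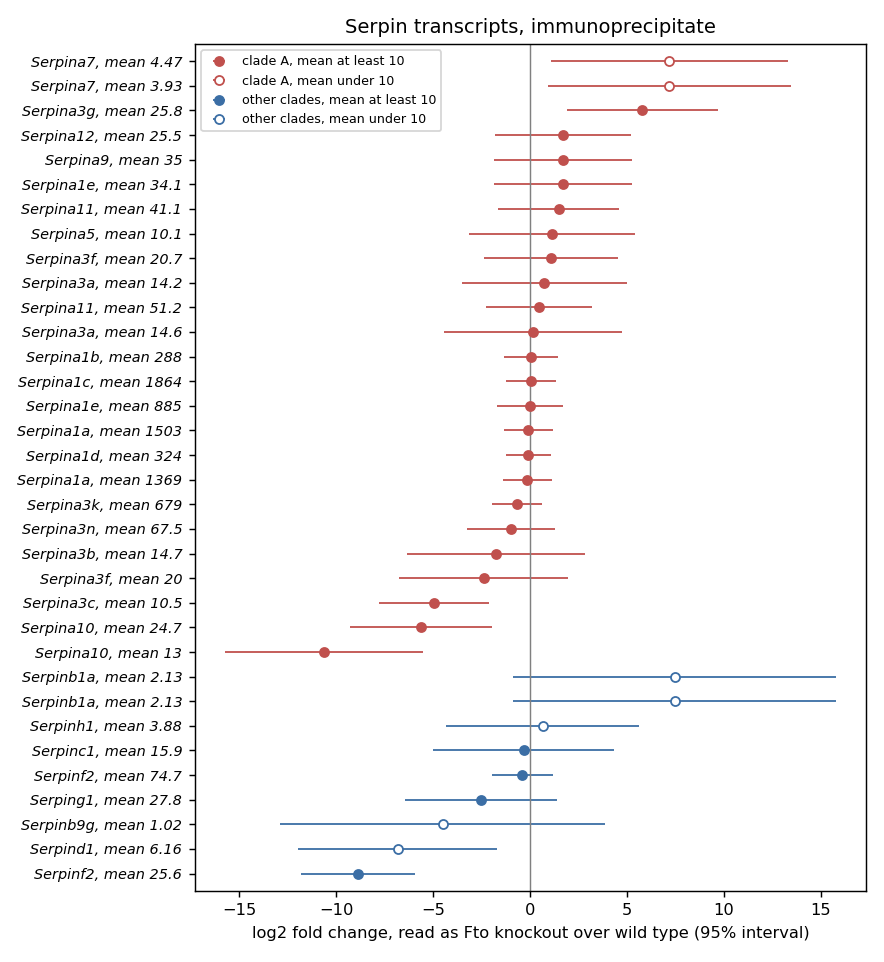
Log2 fold change of each of the 34 serpin transcripts in the immunoprecipitate (x axis, read as knockout over wild type) with its 95% interval from the authors' standard error; the label gives the transcript's mean, clade A is red, other clades are blue, and open points have a mean under 10. The Serpina1 transcripts with means from 288 to 1864 lie between −0.14 and 0.05, and folds beyond 4 in size occur only at means under 26.

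Serpina7 had little signal in the immunoprecipitate. Its 2 transcripts had means of 4.47 and 3.93 and the same log2 fold change of 7.19 (SE 3.13 and 3.19), with no p, in the authors' deposited table. DESeq2 leaves a p blank where a count of 1 library is an outlier, and 723 transcripts of this table have a statistic and no p. The direction is that of the input, but the sign of the immunoprecipitate was itself read from a correlation with the input. With no p and means under 10 the Serpina7 fold here adds no call. Serpina6 was not among the immunoprecipitate transcripts analysed here.

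Serpina1 transcripts had the highest means of the serpins in the immunoprecipitate, with Serpina3k (mean 679.1) above Serpina1d and Serpina1b. Their most abundant forms stood at 0.04 for Serpina1c (mean 1864, SE 0.66), −0.09 and −0.14 for Serpina1a (means 1503 and 1369), −0.02 for Serpina1e (mean 884.6), −0.09 for Serpina1d (mean 324.1) and 0.05 for Serpina1b (mean 287.7) in the authors' deposited table. Their intervals were still wide, from −1.26 to 1.33 for Serpina1c. A second Serpina1e transcript with a mean of 34.1 stood at 1.68 (SE 1.82, adjusted p = 0.950) according to the authors' deposited table. Serpina3k stood at −0.66 (mean 679.1, SE 0.66) and Serpina3n at −0.98 (mean 67.5, SE 1.15) in the authors' deposited table.

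Among immunoprecipitate transcripts whose mean reached 10 the median log2 fold change was −0.82, so the sign of values near 0 depends on the scaling. To 2 decimals −0.82 was also the most repeated fold of the immunoprecipitate, held by 843 transcripts of any mean. The median thus falls on a repeated fitted value and may not be a typical difference between the genotypes. Relative to that median the 6 abundant Serpina1 transcripts lay between 0.68 and 0.86, Serpina3k at 0.16, Serpina3n at −0.16 and the abundant Serpinf2 transcript at 0.42, while the called Serpinf2 transcript lay at −8.05. Clade A had a median of 0.04 over 23 transcripts, 0.85 above the median transcript, and 12 of them were above 0. The other clades had 4 transcripts at that mean, Serpinc1 (−0.33), Serping1 (−2.54) and the 2 of Serpinf2, with a median of −1.47, all below 0 as printed in the authors' deposited table. Relative to the median transcript their median was −0.65, and Serpinc1 and the abundant Serpinf2 form were above it. The clades were not tested against each other here either.

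Remaining clade A transcripts had wide errors. Serpina12 (1.69, SE 1.78), Serpina9 (1.69, SE 1.82), Serpina5, the protein C inhibitor (1.12, SE 2.19), and Serpina11 (0.44, SE 1.40, and 1.47, SE 1.59) lay above 0 in the authors' deposited table. Serpina3a (0.74 and 0.14) and Serpina3b (−1.76, SE 2.35) had adjusted p-values of 0.780 or more in the authors' deposited table. To 2 decimals the 0.14 of Serpina3a is a repeated value, held by 278 transcripts. The 2 Serpina3f transcripts stood on opposite sides at −2.39 (SE 2.22) and 1.09 (SE 1.77) in the authors' deposited table. Under a mean of 10 stood Serpinb1a at 7.45 (2 transcripts with the same values, mean 2.13, SE 4.25), Serpinb9g at −4.52 (mean 1.02, SE 4.28) and Serpinh1 at 0.64 (mean 3.88, SE 2.55) in the authors' deposited table.

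The authors' p in the immunoprecipitate does not test the printed fold, so lower below is the sign of that fold alone. Among the listed proteases, thyroid hormone genes and secretory genes, single transcripts were called lower in the immunoprecipitate. They were Dio1 at −9.66 (mean 14.5, SE 1.64, adjusted p = 0.00148), the complement protease gene Masp1 at −9.89 (mean 13.2, SE 2.05, adjusted p = 0.0386) and the cargo receptor gene Lman1 at −7.85 (mean 18.6, SE 1.67, adjusted p = 0.0461) according to the authors' deposited table. Each was the 1 called transcript of its list, of 16, 17 and 18 transcripts of any mean, which is near the 4.90% called lower over transcripts with a mean of at least 10. Of the 9 glucocorticoid and 11 transcription factor transcripts of any mean 0 were called by the authors' DESeq2 table. In each list 1 transcript had an unadjusted p under 0.05, both of them lower and at means under 10. Over transcripts of any mean, 583 of the 6846 with a p were lower at that threshold.

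How much of each serpin was recovered was read as the mean of its most abundant transcript in the immunoprecipitate over its mean in the input. The tables were scaled separately, so only ratios between genes can be compared, and length cancels only in so far as the transcript covers the gene. Over 3298 protein-coding genes in both tables with an input mean of at least 10 the median ratio was 0.0760. Of 20 serpins, 13 lay above it, and their ratios ran from 0.00619 to 5.12. The Serpina1 copies together had a summed mean of 4970 in the input and 4864 in the immunoprecipitate, a ratio of 0.979. Within them the ratio ran from 0.214 for Serpina1b to 2.44 for Serpina1c and 5.12 for Serpina1a, and reads shared between copies may be counted differently in the tables.

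Plasma inhibitors of other clades were spread over the lower part of this scale. Serpind1 had a ratio of 0.00619 and Serpinc1 of 0.00687, at percentiles 2.55 and 3.24 of those genes, though their input means were 995.0 and 2312 in the authors' deposited table. Serpina7, at 0.0199, lay at percentile 14.34, Serping1 (0.0361) at 27.05, Serpina10 (0.0515) at 37.54, Serpinf2 (0.0537) at 38.84 and Serpina3k (0.0697) at 46.79. Serpina11 reached 0.627, and Serpina3f and Serpina3g reached 1.89 and 2.05 on input means of 10.97 and 12.54 in the authors' deposited table. The 5 Serpina3 genes in both tables had a ratio of 0.0779 from their summed means. Clade A had a median ratio of 0.381 (14 genes) and the other clades of 0.0441 (6 genes); without the Serpina1 and Serpina3 copies clade A came to 0.104 (4 genes). Genes missing from the immunoprecipitate table have no ratio, and no test was made across genes.

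**Figure D4:**
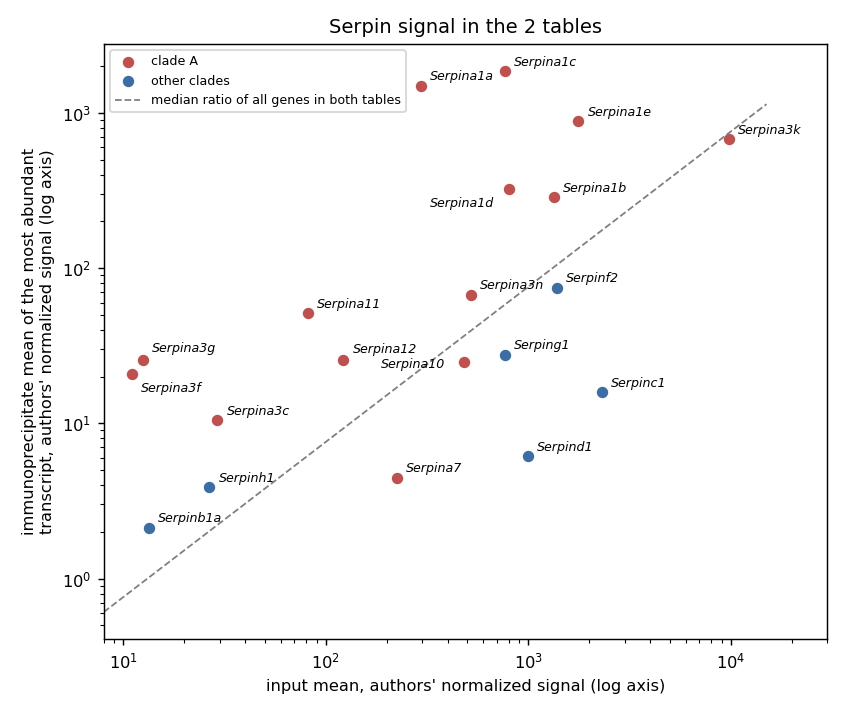
Mean signal of 20 serpins in the input (x axis) and of their most abundant transcript in the immunoprecipitate (y axis), both the authors' normalized values on log axes; clade A is red, other clades are blue, and the dashed line is the median ratio of 3298 genes, 0.0760. The Serpina1 copies lie above the line, and Serpina7, Serpinc1 and Serpind1 lie below it.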

How the data were processed

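Wild-type and Fto knockout liver RNA was measured as input and miCLIP immunoprecipitate. The submitters' processing notes name STAR, bedtools 2.25.0, DESeq2 and the mm10 build, without role or parameter. Per the file headers, the authors' tables hold a mean normalized signal, a log2 fold change with its SE on the log2 scale, a test statistic (a score of the authors' test) and the authors' p-value and adjusted p-value. Depth per library is unknown. The input statistic was checked to be fold over SE, the Wald form. Immunoprecipitate p-values were checked to be a chi-square tail with 1 degree of freedom at the statistic.

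Here, serpin rows were read from both tables. The authors' adjustment over all features was used with a threshold of 0.05 and a minimum mean of 10. Intervals (95%) are normal intervals from the authors' SE, approximate for input folds, which have the small size of shrunken estimates. Current symbols matched 12869 input identifiers. By the naming rule, full statistics went to Serpina7, members with p under 0.05, those with the highest means, the lowest p in each clade group and up to 4 genes per list. Dio1, the called list transcripts of the immunoprecipitate and the markers were named after their values were seen. Members and lists were chosen with earlier results of these data known. Scripts (Python 3.11.15, scipy 1.17.1) were tested on simulated data. Values of some genes are not reported here.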

Additional observations from a re-analysis of the deposited data

How the results depend on the processing

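Serpina7 stayed called when the same Wald p-values were adjusted over the genes of the table (adjusted p = 0.00440). Centring left its fold at 1.32 and reused the authors' p, so it could not change the call. The count of 1 called serpin in the input was 1 at an adjusted p under 0.1, with the adjustment over the table, without a minimum mean and at a minimum mean of 50, and Serpina7 was the gene each time. In the immunoprecipitate the count of 1 went to 2, both lower, at an adjusted p under 0.1, with a Serpina10 transcript added. It went to 5 (4 lower, 1 higher) with p from fold over SE. It was 1 with the adjustment over the table and without a minimum mean. Medians of the clades have no error of their own here and moved between alternatives. In the input they ran from −0.20 (without the Serpina1 and Serpina3 copies) to −0.08 for clade A and from −0.03 to 0.03 for the other clades. In the immunoprecipitate they ran from 0.04 to 0.85 (centred) for clade A. For the other clades they ran from −1.47 to −0.40 (1 transcript per gene), and centring the −1.47 in the same way gave −0.65. No paired analysis was possible because the tables used here hold comparisons and no values of single replicates, and for the same reason no replicate could be left out and no depth could be given.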

Other observations

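The methylated adenosine next to the cap, on which Fto also acts, can form only where a transcript begins with A. Of the 26 members with a RefSeq promoter, 10 had A as the first base at every annotated start, 14 at none and 2 at some, and 34.4% of all promoters had A there. Serpina7 had G at both starts, as did Serpina12 and Serpinf2 at theirs, while Serpinc1, Serpind1, Serpina3c, Serpina1b and Serpina1d had A. With a mean of at least 10, the immunoprecipitate log2 fold changes had a median of −0.21 (8 transcripts, −4.95 to 1.12) where every start had A and of 0.01 (12 transcripts, −8.87 to 5.80) where none had. In the input the medians were −0.01 (6 genes, −0.16 to 0.51) and −0.07 (12 genes, −0.70 to 1.32). The ranges overlap, starts were annotated and not measured in these samples, and the annotated starts of the Serpina1 copies differ although their upstream letters are the same.

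Serpins that carry another name in the tables were outside the members. Angiotensinogen, the Agt gene of the same clade, stood at 0.25 (mean 1101, SE 0.23, p = 0.287) in the input and at 0.04 (mean 95.1, SE 0.74, adjusted p = 0.981) in the immunoprecipitate, in the authors' deposited table. Serpina3i stood at −0.38 and Serpina3j at −0.01 in the input, at means of 5.86 and 5.85, in the authors' deposited table.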
